A study of Mus musculus with 11 samples.

Results

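Respiratory chain and ATP synthase subunits encoded in the nucleus were followed through a night without food in the hypothalamus and cerebellum of the mouse. The members are all probes whose annotation gives a single gene symbol of the Nduf subunit families A, B, C, S and V, of Sdha to Sdhd, of the Uqcr, Cox4 to Cox8 or Atp5 families. This symbol rule gave 82 of 34999 probes, for 75 genes, 7 of them with 2 probes. Complex I has 33 of these probes, complex II 4, complex III 11, complex IV 16 and complex V 18. Another 6 probes carry a matching symbol among several and were left out. The pseudogene Ndufs5-ps is among the members because its symbol matches, and so is Ndufa4l2, a paralogue of a subunit gene.

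All mice were wild-type SV/129 females aged 10 weeks with water at all times. In the fasted groups, food was withheld from 6 mice for 16 hours from the onset of darkness, and in the fed groups 6 mice kept chow. The 6 RNA samples of a condition were combined, separately by brain region, and each of the 4 pools so made was hybridised repeatedly to CodeLink whole genome arrays. The arrays used here are 3 of fed hypothalamus, 3 of fasted hypothalamus, 3 of fed cerebellum and 2 of fasted cerebellum. The fasting change in the hypothalamus, in the cerebellum, and its difference between the regions are the comparisons this design implies.

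Oxidative phosphorylation in the inner mitochondrial membrane supplies most of the ATP of neurons. Complexes I and II pass electrons from NADH and succinate to ubiquinone, complex III passes them to cytochrome c and complex IV to oxygen, while complexes I, III and IV pump protons. Complex V, the ATP synthase, uses the proton gradient to make ATP.

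The deposited values are ratios to the median of the 3 fed arrays of the same region, so the middle fed array of each probe stands at 1 by construction. Values below are log2 of these ratios after each array was divided by its median, and changes are fasted minus fed ± SE from the limma fit. The values hold no signal level, so no subunit can be ranked against another by abundance, and markers of hypothalamus or cerebellum could not be checked by their level. Between arrays of 1 pool, the median SD was 0.0988 for member probes in fed hypothalamus, 0.0733 in fasted hypothalamus, 0.0794 in fed cerebellum and 0.0587 in fasted cerebellum. Groups of 2 or 3 arrays were too small to look for single outlying arrays. The member medians of fed arrays are also drawn towards 0 by the division by the fed median. Arrays repeat 1 pool, so each p-value compares pools and holds no spread between mice. A probe is said to have risen or fallen, or to be called, at a limma adjusted p under 0.05 over all 34999 probes.

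In the fasted hypothalamus, 16 of the 82 probes fell and 2 rose, while 64 were not called. Over all probes the background was 7.89% lower and 6.34% higher, and over probes with 1 gene symbol 8.95% and 5.64%, against 19.5% and 2.44% of the members. In either direction the shares called were 22.0% of the members, 14.2% of all probes and 14.6% of those with 1 gene symbol. The median change of the members was -0.13, beside 0.00 over all probes and -0.02 over probes with 1 gene symbol. With 75th percentile scaling it was -0.23 beside -0.11 over all probes, and without further scaling -0.17 beside -0.04. With quantile normalization it was -0.087 over all arrays and -0.088 within regions, beside 0.0035 and 0.0053 over all probes. The change was below 0 for 65 member probes, or 79.3%, beside 49.6% of all probes and 53.6% of those with 1 gene symbol. All fasted arrays lay below all fed arrays for 35 members, or 42.7%, beside 19.5% of all probes and 22.0% of those with 1 gene symbol. They lay above for 3, or 3.66%, beside 17.8% and 15.9%. The median over members was 0.03, 0.00 and -0.00 on the fed arrays and -0.13 on each of the 3 fasted arrays. The shift was thus small and present on every fasted array, and most single probes within it passed no test. All 16 probes that fell were among the 70 members annotated with a RefSeq mRNA, whose median change was -0.15. The other 12 members had 0 lower and 2 higher and a median of 0.03. The background was not counted by this annotation, so the split was not tested.

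These counts depend on the scaling. With each array divided by its 75th percentile, which moves the median of all probes to -0.11, 47 members were lower and 1 higher. These are 57.3% and 1.22%, beside 24.4% and 2.04% of all probes. With quantile normalization over all arrays limma called 0 members, beside 0.0914% of all probes, and 11 members, 10 of them lower, had an unadjusted p under 0.05, beside 7.81% of all probes.

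**Figure D1:**
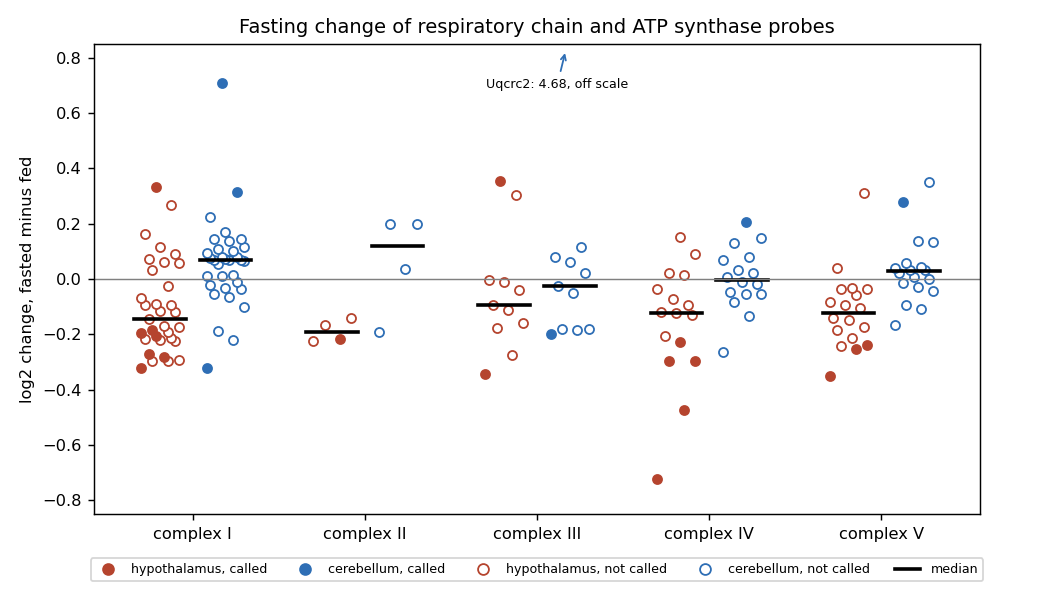
Log2 change, fasted minus fed, of the 82 member probes by complex in hypothalamus (red) and cerebellum (blue). Filled points passed an adjusted p under 0.05 and bars are medians. Medians lie between -0.19 and -0.09 in hypothalamus and between -0.03 and 0.12 in cerebellum, and 1 Uqcrc2 probe at 4.68 is off the scale.

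In complex I of the hypothalamus, 6 of 33 probes fell and 1 rose, with a median of -0.14. Ndufb2, an accessory subunit of the membrane arm, stood at 0.13, 0.00 and -0.09 on the fed arrays and at -0.30, -0.36 and -0.26 on the fasted arrays. It fell by 0.32 ± 0.06 on the log2 scale (limma adjusted p = 0.01067). Ndufa7, another accessory subunit, lay between -0.05 and 0.02 on the fed arrays. Its fasted values were -0.31, -0.25 and -0.32, and it fell by 0.28 ± 0.04 (adjusted p = 0.005762). For both genes every fasted array lay below every fed array. Ndufa1 (-0.27 ± 0.06, adjusted p = 0.02212) and Ndufb4 (-0.21 ± 0.04, adjusted p = 0.01644), 2 further accessory subunits, also fell. Ndufb9 (-0.19) and Ndufs6 (-0.18) fell as well and lie outside the naming rule, so they were picked after their values were seen.

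The probe that rose in complex I was that of Ndufs5-ps, at -0.21, 0.00 and 0.09 on the fed arrays and 0.21, 0.25 and 0.41 on the fasted arrays (0.33 ± 0.08, adjusted p = 0.03517). The signal of this probe cannot be assigned with certainty to the pseudogene or to its parent gene. The nuclear-encoded core subunits of complex I carry its flavin and iron-sulfur clusters. None of their 7 probes was called in hypothalamus. By limma 3 (42.9%) had an unadjusted p under 0.05, beside 32.1% of all probes. The median of the core changes was 0.06, beside -0.18 for the 26 other probes of the complex. This median rests on single arrays. It was -0.11 without fed array 2, on which Ndufs8 stood at -0.96 beside 0.27 and 0.00 on the other fed arrays, and -0.02 without fed array 1 (checks chosen after seeing the data). The median of the core values on each array was 0.00, 0.01 and 0.00 for the fed and -0.10, -0.14 and -0.12 for the fasted arrays. No difference between core and other probes can be read from these values. Ndufs7 stood at -0.30 ± 0.09 (adjusted p = 0.0641), Ndufv1 at -0.17 ± 0.07 (0.1283), and Ndufs1 at 0.16 ± 0.09 (0.218).

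Complex II, succinate dehydrogenase, is also an enzyme of the tricarboxylic acid cycle. All 4 of its subunits had a change below 0, and 1 was called. Sdhc, which anchors the complex in the membrane, stood at 0.00, 0.04 and -0.02 on the fed arrays and at -0.18, -0.21 and -0.24 on the fasted arrays. These groups did not overlap, and Sdhc fell by 0.22 ± 0.05 (limma adjusted p = 0.02561). The other anchor subunit Sdhd was at -0.22 ± 0.08, the iron-sulfur subunit Sdhb at -0.14 ± 0.07 and the flavoprotein Sdha at -0.17 ± 0.10, and none of these passed the test.

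Complex III gave 1 probe lower and 1 higher of 11. Uqcrc1, a core protein on the matrix side, lay at 0.05, 0.00 and -0.05 on the fed arrays and at -0.33, -0.35 and -0.36 on the fasted arrays. The fasted arrays were all lower and close together, and Uqcrc1 fell by 0.34 ± 0.04, or 1.27-fold (limma adjusted p = 0.002165). The small subunit Uqcr10 rose by 0.35 ± 0.07 on 1 probe (adjusted p = 0.01612), whereas its other probe gave -0.00 ± 0.07. Its direction therefore rests on the choice of probe.

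Complex IV, cytochrome c oxidase, held the largest change among the members in hypothalamus. Cox6a2, the isoform of subunit VIa typical of heart and skeletal muscle, stood at 0.04, -0.00 and -0.00 on the fed arrays. Its fasted values were -0.72, -0.73 and -0.68, so that the pools were far apart beside a spread of a few hundredths within each. Cox6a2 fell by 0.72 ± 0.04, or 1.65-fold (limma adjusted p = 8.154e-05). Cox6b1, which sits on the intermembrane side, had fed values of 0.29, -0.02 and 0.00 and fasted values of -0.27, -0.35 and -0.52. It fell by 0.47 ± 0.09 (adjusted p = 0.01313), with wider spread in both groups. Cox8b (-0.30 ± 0.07, adjusted p = 0.029), Cox7b2 (-0.29 ± 0.07, adjusted p = 0.02627) and the zinc-binding subunit Cox5b (-0.23 ± 0.06, adjusted p = 0.0303) also fell, and Cox5b is the one outside the naming rule. With 5 lower and 0 higher of 16 probes, the complex had a median of -0.12.

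**Figure D2:**
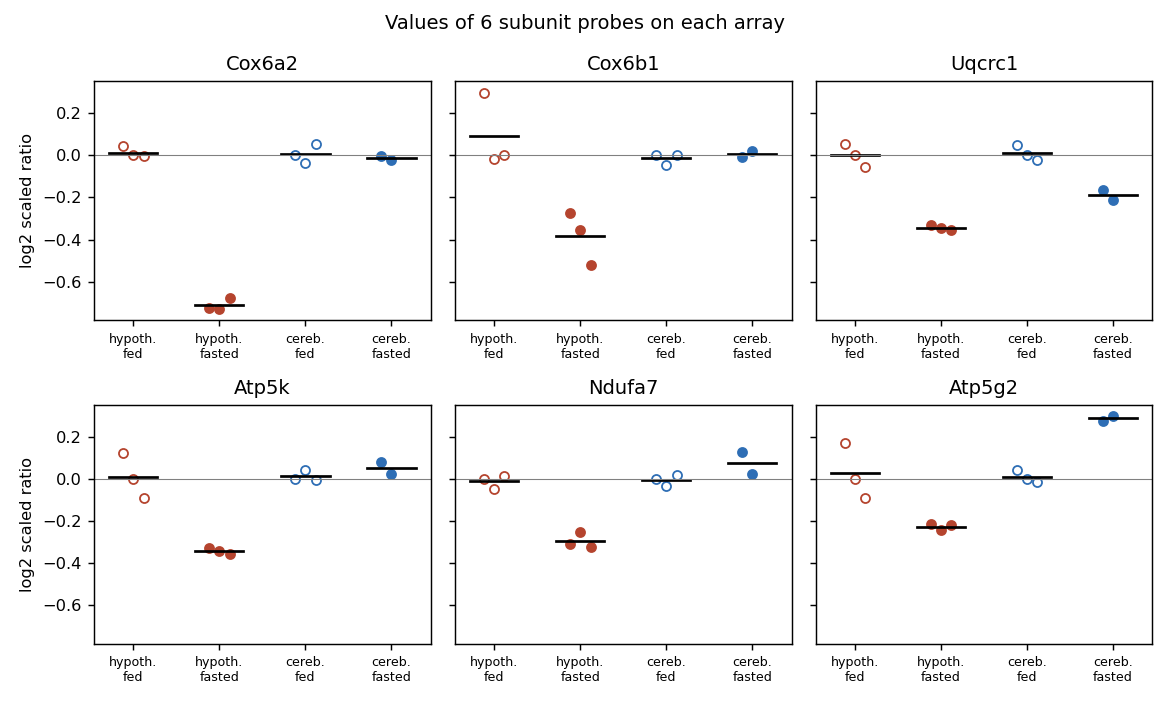
Log2 scaled ratios of 6 subunit probes on each of the 11 arrays (open points fed, filled points fasted, bars group means). All 6 are lower on the fasted than on the fed hypothalamus arrays, while in cerebellum Uqcrc1 is lower, Atp5g2 higher and Cox6a2 within the fed range.

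In complex V, 3 of 18 probes fell and 0 rose, with a median of -0.12. Atp5k, subunit e of the membrane sector, had fed values of 0.12, 0.00 and -0.09 and fasted values of -0.33, -0.34 and -0.35. It fell by 0.35 ± 0.05 (limma adjusted p = 0.006126). Atp5e, subunit epsilon of the catalytic sector, had fed values of 0.00, 0.01 and -0.09 and fasted values of -0.24, -0.25 and -0.30. The groups did not overlap for either gene, and Atp5e fell by 0.24 ± 0.04 (adjusted p = 0.007771). Atp5g2, one of the genes for the proton-carrying subunit c, had fed values of 0.17, 0.00 and -0.09 and fasted values of -0.22, -0.24 and -0.22, and fell by 0.25 ± 0.06 (adjusted p = 0.02967).

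Of the 18 calls in hypothalamus, 7 held when any 1 of the 11 arrays was left out, namely Cox6a2, Cox6b1, Uqcrc1, Atp5k, Ndufa7, Ndufb2 and Atp5e. The count fell to 8 without fed hypothalamus array 1, to 7 without fed array 2, to 10 without fasted array 2 and to 7 without fasted array 3. In the same fits the share called over all probes fell to 6.98%, 6.19%, 6.65% and 5.54%, from 14.2%. The share of the members called was 9.76%, 8.54%, 12.2% and 8.54%, from 22.0%.

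Several subunits of complexes IV and V have isoforms, and the lower values in hypothalamus were not shared by all of them. For subunit VIa, Cox6a1, the form of most tissues, was at 0.02 ± 0.11 beside the fall of Cox6a2. For subunit VIII, Cox8a, also the widespread form, was at -0.13 ± 0.06 and did not pass the test, beside the muscle form Cox8b at -0.30. For subunit VIIa, the muscle form Cox7a1 was at -0.21 ± 0.08, the widespread form Cox7a2 at 0.15 ± 0.11 and Cox7a2l at -0.09 ± 0.06, and none of them was called. Cox7b was at 0.02 ± 0.07 beside its paralogue Cox7b2 at -0.29. Cox4i1 (0.09 ± 0.10), Cox4i2 (-0.03 ± 0.08), Atp5g3 (-0.09 ± 0.06) and both Atp5g1 probes (-0.18 and -0.04) were not called. The difference between isoforms was not tested.

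**Figure D3:**
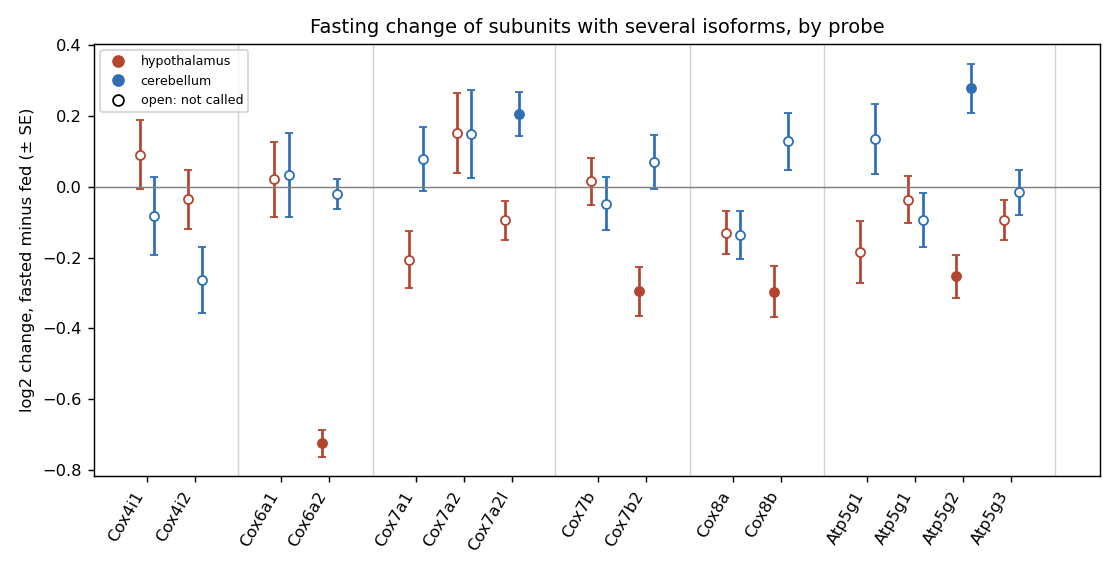
Log2 change ± SE, fasted minus fed, of probes for subunits with more than 1 measured isoform (red hypothalamus, blue cerebellum, filled where called), so Cox6b1, which also fell in hypothalamus, is not drawn. Of the genes drawn, in hypothalamus Cox6a2, Cox7b2, Cox8b and Atp5g2 are called, all below 0, and in cerebellum Cox7a2l and Atp5g2 are called, both above 0.

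Promoters of 5 genes that fell in hypothalamus are shown as examples, picked because they hold short motifs of regulators of mitochondrial genes. Whether the motifs bear on the fall was not tested. Each is the stretch of 120 bases before the RefSeq start of assembly GRCm38.p6, read 5′ to 3′ on the gene's strand. Capitals mark exact matches to the motifs for NRF1 (GCGCANGCG), GABP (CCGGAAG) or ERR (TNAAGGTCA) on either strand.
Cox6b1, chr7:30626115-30626234, minus strand: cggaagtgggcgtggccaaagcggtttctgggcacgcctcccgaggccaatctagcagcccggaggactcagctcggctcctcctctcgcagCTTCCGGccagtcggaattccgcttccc
Atp5k, chr5:108434400-108434519, minus strand: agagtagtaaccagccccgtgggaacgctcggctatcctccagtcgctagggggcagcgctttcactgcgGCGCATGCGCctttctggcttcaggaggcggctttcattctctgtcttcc
Atp5g2, chr15:102671048-102671167, minus strand: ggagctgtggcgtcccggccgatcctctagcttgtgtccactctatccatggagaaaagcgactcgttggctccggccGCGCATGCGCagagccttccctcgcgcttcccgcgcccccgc
Atp5e, chr2:174464102-174464221, minus strand: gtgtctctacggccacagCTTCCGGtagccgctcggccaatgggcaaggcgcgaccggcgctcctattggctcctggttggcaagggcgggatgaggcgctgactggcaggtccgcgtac
Ndufb4, chr16:37654369-37654488, minus strand: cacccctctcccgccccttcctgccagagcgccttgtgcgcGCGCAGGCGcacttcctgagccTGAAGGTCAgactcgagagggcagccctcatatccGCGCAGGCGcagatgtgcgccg
In Atp5k and Atp5g2 the capitals are 1 palindromic NRF1 match, in Cox6b1 and Atp5e a GABP match in reverse, and in Ndufb4 a pair of NRF1 matches around an ERR match.

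The promoter table matched 60 of the 75 member genes, with 65 promoters of 300 bases, reaching 250 bases before and 50 after the start. The NRF1 motif was in 29.2% of them and in 6.25% of all 32851 promoters of that length. The GABP motif was in 24.6% beside 8.86%, the YY1 motif (AANATGGC) in 21.5% beside 6.05% and the ERR motif in 4.62% beside 1.28%. Member promoters also had more G and C, with a median of 57.7% beside 52.7%. Among the 14 member promoters of genes called lower in hypothalamus, 35.7% held the NRF1 motif and 21.4% the GABP motif, beside 27.5% and 25.5% of the other 51. At least 1 of these motifs was in 50% of the 14 and in 43.1% of the other 51. A match describes letters only and shows no binding.

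In the fasted cerebellum, 2 member probes fell and 4 rose, or 2.44% and 4.88%, beside a background of 11.2% lower and 9.66% higher over all probes and of 15.0% and 6.70% over probes with 1 gene symbol. With 75th percentile scaling, which moves the median of all probes to -0.12, 11 members were lower and 1 higher, or 13.4% and 1.22%, beside 26.7% and 4.95% of all probes. The median change of the members was 0.03 (0.01 over all probes), and -0.10 with 75th percentile scaling. Fewer members passed the test than probes at large, 7.32% beside 20.9% of all probes and 21.7% of those with 1 gene symbol. The change was below 0 for 32 members, or 39.0%, beside 48.4% and 54.0%. Both fasted arrays lay below all fed arrays for 7 members, or 8.54%, beside 24.9% and 30.2%, and above them for 20, or 24.4%, beside 25.1% and 20.7%. The middle 50% of the member changes ran from -0.05 to 0.10, a narrower range than the -0.13 to 0.15 of all probes. On the fasted arrays the member median was 0.02 and 0.02, close to the 0.00, 0.00 and -0.00 of the fed arrays. By complex the medians were 0.07, 0.12, -0.03, -0.00 and 0.03 for complexes I to V.

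**Figure D4:**
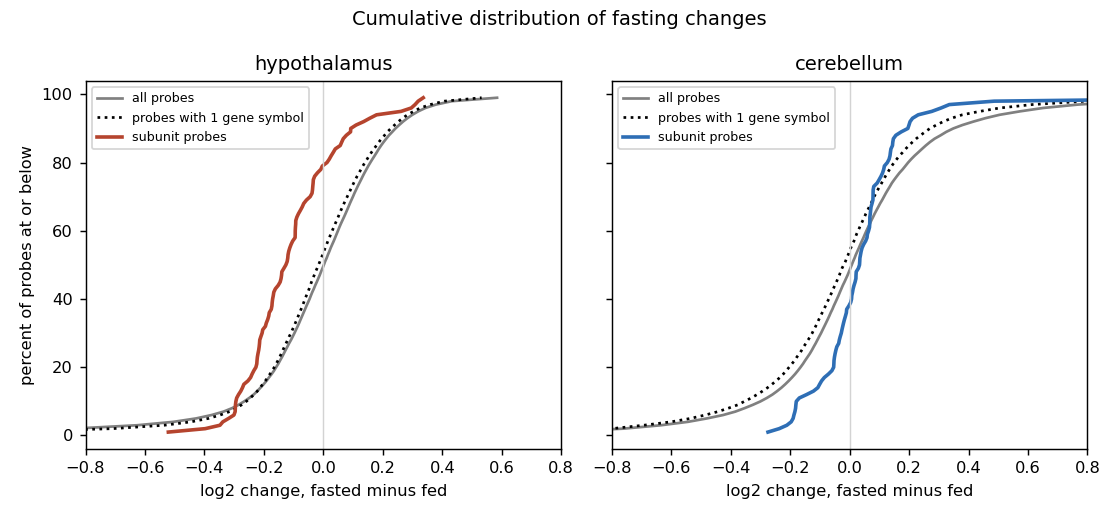
Percent of probes at or below each log2 change, fasted minus fed, for member probes (coloured), probes with 1 gene symbol (dotted) and all probes (grey). The member curve lies to the left in hypothalamus, with 79.3% below 0 beside 49.6%, and is steeper than the others in cerebellum.

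The largest call in cerebellum was on 1 of the 2 probes of Ndufa12, an accessory subunit of complex I. It stood at 0.00, 0.05 and -0.27 on the fed arrays and at 0.68 and 0.59 on the fasted arrays, and rose by 0.71 ± 0.10 (limma adjusted p = 0.001576). The other Ndufa12 probe gave -0.04 ± 0.08, so the gene's probes disagree. This was the only one of the 6 cerebellar calls that held without any 1 array.

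Ndufs1, the largest core subunit of complex I, lay between -0.20 and 0.03 on the fed arrays and at -0.42 and -0.34 on the fasted arrays, and fell by 0.32 ± 0.10 (limma adjusted p = 0.04225). Uqcrc1 had fed values of 0.05, 0.00 and -0.02 and fasted values of -0.17 and -0.21, and fell by 0.20 ± 0.05 (adjusted p = 0.01545). It was the one member that fell in both regions, and Ndufs5-ps the one that rose in both. Atp5g2 had fed values of 0.04, 0.00 and -0.02 and fasted values of 0.27 and 0.30, and rose by 0.28 ± 0.07 (adjusted p = 0.02079), opposite to hypothalamus. Cox7a2l, known for its part in joining complexes III and IV, rose by 0.21 ± 0.06 (adjusted p = 0.04648), and Ndufs5-ps by 0.32 ± 0.10 (adjusted p = 0.04518). In each of the 6 calls the fasted arrays lay outside the range of the fed arrays.

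One Uqcrc2 probe stood at 4.68 ± 1.65 in cerebellum and was not called (limma adjusted p = 0.07862). Its fed arrays alone ran from -3.32, the floor, to 3.64, and the other Uqcrc2 probe gave -0.03 ± 0.09. No cerebellar call held with quantile normalization (limma, 1 member with an unadjusted p under 0.05, beside 8.90% of all probes). The count fell to 2 without fed cerebellum array 2, to 3 without fed array 3 and to 1 without fasted array 1 or fasted array 2. These are 2.44%, 3.66%, 1.22% and 1.22% of the members, where 16.4%, 18.3%, 13.0% and 16.2% of all probes were called.

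The fasting change itself differed between the regions for 18 members, with 17 more negative in hypothalamus and 1 more positive, beside a background of 9.01% and 8.66% over all probes and of 7.64% and 10.8% over probes with 1 gene symbol. In either direction this was 22.0% of the members, beside 17.7% and 18.5%. The difference was below 0 for 63 members, or 76.8%, beside 48.5% and 46.7%. A change below 0 in hypothalamus with one above 0 in cerebellum was found for 38 members, or 46.3%, beside 24.1% of all probes. The naming rule gives the 4 largest differences. Cox6a2, at -0.02 ± 0.04 in cerebellum, differed by -0.71 ± 0.06 (limma adjusted p = 0.00013). The Ndufa12 probe above differed by -0.65 ± 0.14 (0.0139), with 0.06 ± 0.09 in hypothalamus beside its rise in cerebellum. Atp5g2, which fell in one region and rose in the other, differed by -0.53 ± 0.09 (0.005103), and Cox6b1, at 0.02 ± 0.10 in cerebellum, by -0.50 ± 0.14 (0.03635). Ndufs1 was the one in the other direction, at 0.49 ± 0.13 (0.03041).

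Of the other 13 differences, those of Cox8b, Cox7b2 and Cox7a2l fall under the naming rule as isoforms. The rest were picked after their values were seen. In complex II, Sdhb, Sdhc and Sdhd all differed (-0.34, -0.25 and -0.42), while Sdha, at -0.19 ± 0.12 in cerebellum, did not pass (0.02 ± 0.16). In complex I, Ndufs4 (-0.44), Ndufb2 (-0.40), Ndufa7 (-0.36), Ndufs6 (-0.36) and Ndufb4 (-0.27) differed. In complex IV these were Cox8b (-0.43), Cox7b2 (-0.37) and Cox7a2l (-0.30), and in complex V Atp5k (-0.39) and Atp5e (-0.30). No member of complex III passed this test (limma, 1 of 11, or 9.09%, with an unadjusted p under 0.05, beside 31.8% of all probes). The differences of Cox6a2, Atp5g2, Ndufa7, Ndufs6, Atp5e and Atp5k held without any 1 array. The count was 11 without fed array 2, fasted array 2 or fasted array 3 of the hypothalamus, and 8 without either fasted cerebellum array, where 13.6%, 13.6%, 13.9%, 12.4% and 14.5% of all probes were called. It was 0 with quantile normalization over all arrays (limma, 6 members with an unadjusted p under 0.05, beside 8.18% of all probes).

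Genes around the chain were counted in lists. The background over probes with 1 gene symbol was 8.95% lower and 5.64% higher in hypothalamus, and 15.0% and 6.70% in cerebellum. Of the 23 calls named from these lists, 13 held without any 1 array and 4 held with quantile normalization. In hypothalamus only the calls of Ppargc1a and Slc25a27 held without any 1 array, and none held with quantile normalization. Of 6 probes for cytochrome c and for subunits outside the symbol rule, 2 (33.3%) fell in hypothalamus and 1 (16.7%) in cerebellum. Cycs, cytochrome c, fell by 0.29 ± 0.07 in hypothalamus on 1 probe (limma adjusted p = 0.0269), and its other probe gave -0.28 ± 0.10 (0.0905). Ndufab1, the mitochondrial acyl carrier protein within complex I, fell by 0.26 ± 0.07 in hypothalamus and 0.51 ± 0.07 in cerebellum on 1 probe, while its other probe gave -0.08 and -0.10.

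Of 36 probes for assembly factors, 4 (11.1%) fell and 0 rose in hypothalamus, and 7 (19.4%) fell and 1 (2.78%) rose in cerebellum. The lower shares were not far from the background of 8.95% and 15.0%. Cox10, which makes the haem of complex IV, Lyrm7 and Bcs1l, both of which act on the iron-sulfur protein of complex III, were lower in hypothalamus at -0.33, -0.29 and -0.27. In cerebellum Taco1, a translational activator of a complex IV subunit, fell by 0.93, the complex I assembly factor Timmdc1 by 0.77 and Cox15, another haem enzyme, by 0.72. Of 21 probes for the tricarboxylic acid cycle, 1 fell and 1 rose in hypothalamus (Dlst at -0.29, Suclg2 at 0.17). Each is 4.76%, below the background share. In cerebellum 6 (28.6%) of these probes fell and 1 (4.76%) rose, led by Pdha1 (-0.71), Cs (-0.66) and Dld (-0.65).

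Of 26 probes for regulators of mitochondrial genes, 4 (15.4%) fell and 1 (3.85%) rose in hypothalamus. The nuclear receptor gene Esrra was at 0.13, 0.00 and -0.12 on the fed arrays and at -0.23, -0.33 and -0.41 on the fasted arrays, and fell by 0.32 ± 0.08 (limma adjusted p = 0.02588). The coactivator gene Ppargc1a was at 0.09, -0.00 and -0.01 and at -0.24, -0.27 and -0.28, and fell by 0.29 ± 0.05 (adjusted p = 0.008754). For both genes all fasted arrays were below all fed arrays. The related Ppargc1b fell by 0.26 ± 0.07 (adjusted p = 0.04581), a call that held in 1 of the 11 fits with 1 array left out. In cerebellum 6 (23.1%) of the regulator probes fell and 2 (7.69%) rose. Polg, the mitochondrial DNA polymerase gene, was at -0.63, Gabpb1 at -0.62 on 1 probe (0.21 on the other, not called) and Tfb2m at -0.61. Of 15 probes for uncoupling proteins, ATP export and the ATP synthase inhibitor, 1 (6.67%) fell in hypothalamus and 2 (13.3%) rose in cerebellum. The brain carrier gene Slc25a27 did both on 1 probe, at -0.30 ± 0.05 and 0.97 ± 0.05, with its other probe at -0.08 and 0.02, and Ucp1 rose by 0.52 in cerebellum. None of the 13 subunit genes of the mitochondrial genome had a probe with 1 symbol.

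Several markers of neighbouring tissue and of other cells differed between the same fed and fasted hypothalamus pools. The background there was 8.95% lower and 5.64% higher over probes with 1 gene symbol. Of thalamus marker probes, 9 of 18 were lower and 0 higher, and their median ran from -0.02 to 0.05 over the fed arrays and from -0.26 to -0.20 over the fasted arrays. Of microglia probes 4 of 7 were lower and 0 higher, with medians from -0.09 to 0.10 and from -0.31 to -0.23. Lower probes were also 4 of 12 for astrocytes, 3 of 13 for neurons and 2 of 9 for oligodendrocytes, with 0 higher in each. Of Purkinje and granule cell probes 6 of 13 were higher and 1 lower, with medians from -0.05 to 0.01 and from 0.50 to 0.64, and of pericyte and meninges probes 5 of 8 were higher and 0 lower, with medians from -0.08 to 0.01 and from 0.19 to 0.28. Of choroid plexus probes 2 of 6 were lower and 1 higher, of pituitary probes 1 was lower and 2 higher of 6, and the 1 red blood cell probe was higher. In cerebellum the background over probes with 1 gene symbol was 15.0% lower and 6.70% higher. Neuron probes there were 4 higher and 1 lower of 13, pituitary probes 3 higher and 0 lower of 6, and the red blood cell probe higher. Choroid plexus probes were 4 lower and 0 higher of 6, thalamus probes 5 lower and 1 higher of 18, and pericyte and meninges probes 3 lower and 1 higher of 8. Oligodendrocyte probes were 3 lower and 1 higher of 9, and astrocyte probes 3 lower and 3 higher of 12. Purkinje and granule cell probes were 2 lower and 0 higher of 13, and microglia probes 1 lower and 0 higher of 7. The lower shares of these last lists, 15.4% and 14.3%, were near the background. The part of these markers in the subunit results was not tested, and in pooled tissue fewer cells of a type and less RNA per cell cannot be told apart. With 1 pool per condition and region, feeding state and a difference in the tissue taken cannot be told apart either.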

How the data were processed

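Per the series' design text, RNA was pooled for each condition and region, labelled with biotin as cRNA and hybridised in triplicate, and 1 fasted cerebellum array was discarded. The authors deposited linear ratios, 1 per probe and array. From the values, each probe had been divided by the median of the 3 fed arrays of its region, which is 1 for all 34999 probes in both regions (tolerance 1e-06). What scanner software, background correction or scaling came before is not given in the sources used here. The lowest deposited ratio was 0.01.

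Each array was divided by its median, ratios were floored at 0.1 and put on the log2 scale. Group means of the 4 pools were fitted over 11 arrays with limma 3.58.1 (R 4.3.3, 7 residual degrees of freedom and 1.82 from the prior), with two-sided tests and Benjamini-Hochberg adjustment over all probes. The number of arrays limits the precision. Only the fit was run on simulated data, made of independent normal noise on the log2 scale with known falls added in fasted hypothalamus. The scaling and the floor were not part of that run.

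Genes come from the platform annotation (21590 probes with 1 symbol, 681 with several, 12728 with none here). Members and lists were chosen with earlier results of these data known. The naming rule takes, in each complex and region, up to 4 called probes each way with the largest change and arrays that do not overlap, up to 4 each way for the difference between regions, other probes of these genes, the isoforms, and up to 3 called probes of each pathway list. The fasting medians, counts and calls were recomputed with other scalings, floors, filters, priors, blocks and arrays. Matches to motifs were exact, on both strands.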

Additional observations from a re-analysis of the deposited data

Results flagged for a closer look

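The fasting change differed between hypothalamus and cerebellum, by the limma test of the difference itself (hypothalamus minus cerebellum, log2, adjusted p under 0.05), for 18 member probes. In complex I these were Ndufa12 probe 66085 (-0.65), Ndufa7 probe 193021 (-0.36), Ndufb2 probe 314012 (-0.40), Ndufb4 probe 171029 (-0.27), Ndufs1 probe 114013 (0.49), Ndufs4 probe 380046 (-0.44), Ndufs6 probe 216018 (-0.36). In complex II they were Sdhb probe 87024 (-0.34), Sdhc probe 265044 (-0.25), Sdhd probe 361058 (-0.42). In complex IV they were Cox6a2 probe 27016 (-0.71), Cox6b1 probe 101101 (-0.50), Cox7a2l probe 183068 (-0.30), Cox7b2 probe 173087 (-0.37), Cox8b probe 265011 (-0.43). In complex V they were Atp5e probe 288040 (-0.30), Atp5g2 probe 131097 (-0.53), Atp5k probe 318100 (-0.39). No group of arrays was large enough to look for single outlying arrays.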

How the results depend on the processing

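The call counts in hypothalamus, cerebellum and for their difference (18, 6 and 18) were recomputed under each alternative. With 75th percentile scaling they were 48, 12 and 15, or 58.5%, 14.6% and 18.3% of the members (26.4%, 31.7% and 17.9% of all probes called). Without further scaling they were 27, 5 and 18, or 32.9%, 6.10% and 22.0% of the members (16.3%, 21.1% and 17.1% of all probes). Quantile normalization, of all arrays together or within regions, left 0, 0 and 0 (over all arrays 0.0914%, 1.26% and 0.437% of all probes), and limma then gave 11, 1 and 6 members (over all arrays) or 11, 1 and 5 (within regions) with an unadjusted p under 0.05. With only the groups compared they were 9 and 3 (6.31% and 14.0% of all probes). Leaving out 1 array gave 7 to 26, 1 to 6 and 8 to 19. A floor of 0.01, a filter on extreme ratios and a prior with trend kept every count within 1.5 times.

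The median change was -0.23 in hypothalamus and -0.10 in cerebellum with 75th percentile scaling, -0.17 and 0.0023 without further scaling, -0.087 and 0.013 after quantile normalization of all arrays together, and -0.088 and 0.0076 within regions. Over all probes the medians were -0.11 and -0.12 with 75th percentile scaling, and -0.04 and -0.02 without further scaling. Leaving out 1 array gave member medians of -0.14 to -0.11 and 0.014 to 0.040. The cause of these changes was not tested.

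Whether the replicate numbers pair the arrays was not settled. The correlation of deviations between same-numbered fed and fasted arrays was 0.074, 0.095 and 0.072 in hypothalamus and 0.040 and -0.020 in cerebellum. Between arrays of different number it ran from -0.088 to 0.0059 in hypothalamus and from -0.058 to 0.058 in cerebellum. Deviations add up to 0 within a group, so these values depend on each other and cannot decide the question. With the replicate number as a block over all arrays the counts were 18, 6 and 13, and the cerebellar median 0.014. These counts are 22.0%, 7.32% and 15.9% of the members, beside 15.6%, 20.9% and 17.0% of all probes. With the block in 1 region alone they were 0 and 0 (0.137% and 0.00% of all probes), with a cerebellar median of 0.014. In these fits limma gave 33 and 10 members with an unadjusted p under 0.05, beside 30.8% and 24.1% of all probes.

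The average over both regions was called for 11 of the 82 members with arrays as units, a smaller share than the 22.7% of all probes. With pools as units it was called for 0 members and 0.00% of all probes. In that fit limma had 1 residual degree of freedom. There 2 members had an unadjusted p under 0.05, beside 1306 of all 34999 probes. Of the single calls, 0 of 18 in hypothalamus, 0 of 6 in cerebellum and 0 of 18 for the difference held with quantile normalization, and no named probe turned its direction while called.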
